A study of Mus musculus with 16 samples.

Results

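The BET bromodomain acetyl-lysine readers Brd2, Brd3 and Brdt were followed across 4 peak lists of 2 histone modifications in mouse late 2-cell embryos. The 3 genes were taken by name from the RefSeq gene table of GRCm38, which holds 21887 protein-coding genes on chromosomes 1 to 19, X and Y. Embryos were collected 36 h after fertilization. At the zygote stage they had been injected either with water (called control here) or with mRNA of a mutant Hdac1 (called mutant). Immunoprecipitation was done with an antibody to H3K27ac or to H3K4me3 on native chromatin cut with micrococcal nuclease, and each of these 4 groups had 2 libraries and a matching input group of 2, 16 libraries in all. The control injection was water and not an unrelated mRNA. The change carried by the mutant Hdac1, the mouse strain and the number of embryos in a library are not given in the sources used here.

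Bromodomains bind acetylated lysines on histone tails. BET proteins carry a pair of them, followed by an extraterminal domain, and bring the elongation kinase P-TEFb and other factors to acetylated chromatin, where they aid transcription by RNA polymerase II. Brd2 and Brd3 are expressed in most tissues, whereas Brdt is the testis member of the family, needed for chromatin compaction in spermatids. H3K27ac lies at active promoters and enhancers and H3K4me3 mainly at promoters. Hdac1 encodes a deacetylase that removes the acetyl groups that BET proteins read.

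Each group was represented by a single deposited list of peak positions, without heights or scores. Differences between conditions below are therefore differences between 2 lists, with no replicate error and no test. The lists held between 77349 and 122487 peaks each, and the read depth behind them is unknown. A peak lay within 2 kb of a gene end at 54.8% of all genes for control H3K27ac, 58.0% for mutant H3K27ac, 74.7% for control H3K4me3 and 72.9% for mutant H3K4me3. As a check of the labelled stage, all 7 late 2-cell markers had an H3K27ac peak within 2 kb of a gene end in both conditions. Coverage was small at Zscan4f, with 227 of 8002 bases in control and 165 in mutant, and at Zscan4c in mutant, with 263. H3K4me3 lay at 5 of the 7 in control and at all 7 in mutant embryos, with Zscan4c and Zscan4f at 0 in control. These are multicopy genes in part, where reads can be misplaced. Of 6 cumulus cell markers, 3 had H3K27ac in control and 4 in mutant embryos, and 6 and 5 had H3K4me3. H3K27ac was at 0 at Cd44, Ptx3 and Has2 in control and at Cd44 and Tnfaip6 in mutant, and H3K4me3 at Cd44 in mutant. The highest H3K27ac coverage of the 6 was at Amhr2, with 8002 of 8002 gene-end bases in control and 4523 in mutant, and H3K4me3 covered all 8002 there in both. Peaks do not measure expression, so these counts do not show which cells were present.

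The RefSeq promoter table placed 3 transcription start sites in Brd2 and 1 each in Brd3 and Brdt. Brd2 spans 10.8 kb of chromosome 17 (chr17:34112019-34122814, minus strand), with starts at 34119900, 34121747 and 34122607. Brd3 spans 62.1 kb of chromosome 2 (chr2:27445576-27507657, minus strand). Its single listed start, at 27475398, lies 32259 bp inside the outer end of the gene, so the window at that end does not hold the listed promoter. Brdt spans 55.9 kb of chromosome 5 (chr5:107331116-107387061, plus strand), with its start at 107331194. The 250 bases before the outermost start of each gene are shown because a peak of each of the 4 lists covers them. They are read 5′ to 3′ on the gene's strand from the RefSeq table of GRCm38.p6, for Brd2 chr17:34122608-34122857, for Brd3 chr2:27475399-27475648 and for Brdt chr5:107330944-107331193. Capitals mark matches to the searched motifs.
Brd2: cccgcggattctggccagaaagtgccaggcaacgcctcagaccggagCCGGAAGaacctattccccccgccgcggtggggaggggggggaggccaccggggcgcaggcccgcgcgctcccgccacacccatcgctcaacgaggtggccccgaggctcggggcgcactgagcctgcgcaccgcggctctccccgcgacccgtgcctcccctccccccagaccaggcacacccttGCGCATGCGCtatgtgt
Brd3: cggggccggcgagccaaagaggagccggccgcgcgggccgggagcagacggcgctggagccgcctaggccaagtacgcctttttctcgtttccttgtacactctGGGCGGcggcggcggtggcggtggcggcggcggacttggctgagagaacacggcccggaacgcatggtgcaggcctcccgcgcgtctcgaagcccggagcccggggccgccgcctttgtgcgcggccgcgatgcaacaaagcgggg
Brdt: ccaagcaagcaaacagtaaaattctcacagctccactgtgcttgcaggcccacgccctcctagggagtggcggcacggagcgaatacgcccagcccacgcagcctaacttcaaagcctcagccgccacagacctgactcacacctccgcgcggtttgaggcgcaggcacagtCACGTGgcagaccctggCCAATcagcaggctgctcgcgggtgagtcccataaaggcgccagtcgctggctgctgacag

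The promoters differed in base composition. Brd3 held 37 CpG dinucleotides in 250 bases, more than 97.2% of the 21263 promoters listed for protein-coding genes, whose median was 10. Brd2 held 27 at its outermost start, more than 89.0% of promoters, and Brdt held 16, more than 65.9%. Both strands were searched for motifs that were chosen with the sequences in view, and no matches overlapped. In Brd2 the NRF1 motif lay 17 to 8 bases before the outermost start, where its letters are the last in capitals, and 1.07% of all promoters held it. Brd2 also held the ETS motif CCGGAAG, present in 8.98% of promoters. Brd3 held the GC box GGGCGG, present in 42.6% of promoters. Brdt held an E-box, searched as CACGTG and present in 6.63% of promoters, 78 to 73 bases before its start. It also held a CCAAT box, present in 35.4% of promoters, 61 to 57 bases before it. The TATA box, searched as TATAAA and found in 11.6% of promoters, was not among the letters of these 3 windows. A match describes the letters only and is no evidence of a bound factor.

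All 5 listed start sites of the 3 genes lay under a peak of every list. Of the 17492 protein-coding genes with a listed start, 15.1% had every start under a peak of all 4 lists. By list, every start was covered in 33.8% of genes for control H3K27ac, 26.4% for mutant H3K27ac, 63.1% for control H3K4me3 and 59.6% for mutant H3K4me3. Likewise, all 3 genes had both marks within 2 kb of a gene end in both conditions, as had 38.9% of all 21887 genes. The starts of Brd2, Brd3 and Brdt were thus under both marks in both conditions, while the width of the peaks and their pattern along the genes differed between the lists.

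**Figure D1:**
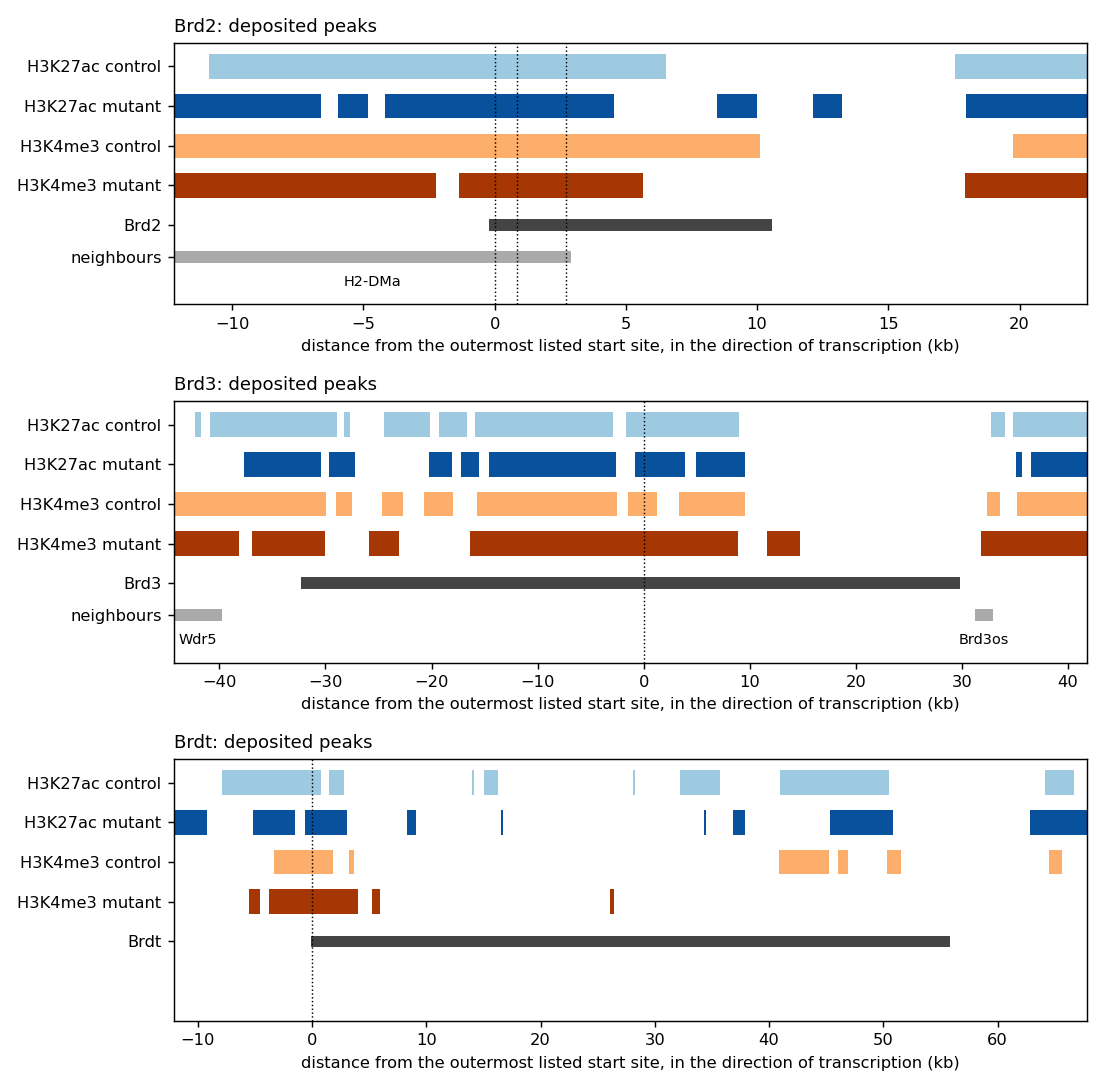
Peaks of the 4 deposited lists at Brd2, Brd3 and Brdt, 1 row per list, against the distance in kb from the outermost listed start site, in the direction of transcription. Peaks that run past a panel edge are cut there, dotted lines mark listed start sites, dark bars the gene span and grey bars neighbouring protein-coding genes. All dotted lines cross a peak in each of the 4 rows, and the H3K4me3 peaks from 40.89 to 51.58 kb into Brdt appear in the control row alone.

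Brd2 was the gene with the most continuous coverage in control embryos. Its control H3K4me3 peak measured 25776 bp and covered 95.7% of the gene, against a median of 13.2% over all genes. In mutant embryos the H3K4me3 peak at its starts measured 7012 bp and 54.3% of the gene was covered. Covered bases of the body were 10329 in control and 5865 in mutant, 0.57 times as many. The bases no longer covered lay in the 3′ part of the gene. At its 3′ end, the window of 2 kb on each side held 1534 covered bases in the control list and 0 in the mutant list.

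Peak width at Brd2 differed more between the lists than covered sequence did. The 25776 bp control peak was met by 2 mutant peaks, of 7012 and 16345 bp, which lay 885 bp apart and summed to 23357 bp. After joining peaks closer than 1 kb to each other, the widest mutant H3K4me3 peak at the gene ends became 24242 bp. Of the bases of the control peak, 79.2% were covered in mutant embryos.

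H3K27ac at Brd2 showed the same division of a peak, with nearly the same summed width. The control peak over the starts measured 17408 bp, and the widest mutant peak at the gene ends 8745 bp. Together, the 3 mutant peaks on the control peak came to 17602 bp. They were separated by gaps of 647 and 615 bp, both below 681 bp, the smallest gap between any neighbouring peaks of the control list. With common limits in all lists (gaps under 750 bp closed, then peaks under 200 bp dropped), the widest H3K27ac peak at Brd2 was 18691 bp wide in control and 18864 bp in mutant.

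At the 3′ end of Brd2 both marks differed, in opposite directions. Mutant embryos had H3K27ac peaks of 1095 and 1522 bp around that end, with no overlap in the control H3K27ac list and with no mutant H3K4me3 over them. The 1522 bp peak lies wholly within the bases of the 25776 bp control H3K4me3 peak. Of all mutant H3K27ac peaks, 67.8% overlapped no control H3K27ac peak. With the 1095 and 1522 bp peaks, H3K27ac bases at both gene ends together were 4001 in control and 5877 in mutant, 1.47 times as many. H3K4me3 bases there were 5535 in control and 3148 in mutant. Over the start sites alone, H3K27ac covered 6708 of 6708 bases in control and 6564 in mutant embryos, so the larger H3K27ac value rests on the 3′ end. The gene-end differences also depended on the window, at 426 bases with 1 kb and 782 with 5 kb for H3K27ac, and at -534 and -5349 for H3K4me3.

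The peaks at the start of Brd2 cannot be given to Brd2 alone. H2-DMa, which encodes a chain of the class II peptide-loading molecule H2-DM, runs in the other direction from a start 225 bp away and overlaps Brd2 by 3122 bp in the gene table. The control peaks of both marks reached over its first listed start, as did the mutant ones. At the gene ends of H2-DMa, H3K4me3 bases were 5162 in control and 8002 in mutant, and H3K27ac bases were 4466 and 3650. The listed starts of H2-DMa lie outside these gene-end windows, and the H3K4me3 difference there comes from the window at its 3′ end. The 885 bp gap between the mutant H3K4me3 peaks falls between its listed starts. The part of each gene in the shared peaks cannot be told apart. The next coding genes, the class II genes H2-Oa and H2-DMb2, lie 16785 and 20415 bp away. H2-Oa was covered over the same 6856 gene-end bases in all 4 lists, and H2-DMb2 over at most 1067.

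Brd3 was covered to a similar extent by each mark over its body in both conditions. H3K27ac covered 34578 bases in control, in 6 peaks, and 29426 bases in mutant embryos, in 7 peaks, a ratio of 0.85. H3K4me3 covered 30772 bases in control, in 7 peaks, and 33443 bases in mutant embryos, in 4 peaks, a ratio of 1.09. Shares of the body ranged from 47.4% to 55.7% over the 4 lists.

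At the listed start of Brd3, H3K4me3 was wider in the mutant list. The control peak over the start measured 2734 bp and the mutant peak 25281 bp. The mutant peak overlapped 3 control peaks that summed to 22256 bp, and 21589 of its bases were covered in control too. The gaps between those control peaks were 2001 and 1046 bp. Within 2 kb of the start, H3K4me3 bases were 2734 of 4001 in control and 4001 of 4001 in mutant embryos.

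H3K27ac at the start of Brd3 went the other way. The peak over the start was 10687 bp wide in control and 4734 bp in mutant, and a second mutant peak of 4621 bp lay 1041 bp further into the gene. The bases within 2 kb of the start were 3705 in control and 2854 in mutant.

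Most of the covered sequence of Brd3 lay before its listed start. In the 32259 bp between that start and the outer gene end, H3K27ac covered 79.3% in control and 64.9% in mutant embryos, and H3K4me3 72.0% and 66.5%. From the listed start to the other end, H3K27ac covered 30.1% and 28.5%, and H3K4me3 25.3% and 40.2%. The last 10 kb of the gene held no peak in any of the 4 lists. The longest stretch under all 4 lists measured 11769 bp and lay from 14620 to 2852 bp before the start. Besides Brd3, the gene table lists the pseudogene Gm18548 there.

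Both coding neighbours of Brd3 had H3K27ac at their ends in control and none in mutant embryos. Wdr5, which encodes a subunit shared by the H3K4 methyltransferase complexes, starts 7490 bp beyond the outer end of Brd3. Its gene ends held 7195 H3K27ac bases in control, partly under the 11943 bp peak that also covers the outer end of Brd3. They held 0 in mutant embryos, where the peak nearest to the Wdr5 start ended 2114 bp before it, outside the window. A mutant H3K27ac peak did overlap the span of Wdr5, outside its gene-end windows. Brd3os lies 1355 bp beyond the 3′ end of Brd3 and had 1476 H3K27ac bases in control and 0 in mutant, with the nearest mutant peak 2141 bp away. Over all genes with a control H3K27ac peak at a gene end, 22.7% had none in mutant embryos. H3K4me3 was present at both neighbours in both lists, with 4765 and 4024 bases at Wdr5 and 1228 and 3146 bases at Brd3os.

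Brdt, the testis member, was under both modifications at its start in both conditions. Its H3K4me3 peak there was 5113 bp wide in control and 7805 bp in mutant, and the mutant peak covered the whole of the control peak. H3K27ac at the start measured 8664 bp in control, reaching 7853 bp upstream and 810 bp downstream. The mutant peak measured 3666 bp and reached 644 bp upstream and 3021 bp downstream, and a second peak of 3684 bp lay 847 bp further upstream. Bases within 2 kb of the gene ends differed little, at 3297 and 3154 for H3K27ac and 3867 and 4001 for H3K4me3. The 3′ end of Brdt had no peak within 2 kb in any list.

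Within the body of Brdt, control embryos had a second marked stretch. H3K27ac covered 9592 bp there, from 40.91 kb after the start, and H3K4me3 peaks of 4341 and 895 bp lay almost wholly under it. Another H3K4me3 peak, of 1277 bp, crossed its 3′ edge, with 198 bases under H3K27ac. None of these 3 H3K4me3 peaks overlapped a mutant H3K4me3 peak, which was also the case for 52.2% of all control H3K4me3 peaks. The H3K27ac stretch was met by a mutant peak of 5523 bp that covered 54.3% of it. The last of the H3K4me3 peaks overlaps the pseudogene Gm8152, and the stretch lies within the lncRNA gene Gm17202, which runs on the minus strand from a start beyond the 3′ end of Brdt.

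Over the whole body of Brdt, both marks covered fewer bases in the mutant list. H3K27ac bases were 16826 in control and 10961 in mutant, a ratio of 0.65. H3K4me3 bases were 8834 and 5198, a ratio of 0.59. Of the H3K27ac peaks at the gene or its end windows, 3 of 7 in control and 3 of 7 in mutant overlapped no peak of the opposite condition. In the whole H3K27ac lists, 60.9% of peaks in control and 67.8% in mutant lacked such an overlap. The nearest coding gene downstream, Ephx4, lies 16452 bp away and had 0 H3K27ac bases at its ends in control and 6308 in mutant. Tgfbr3, which encodes a TGF-beta co-receptor and lies 41487 bp upstream, had 0 and 562. Of all genes without a control H3K27ac peak at a gene end, 34.6% had one in mutant embryos.

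**Figure D2:**
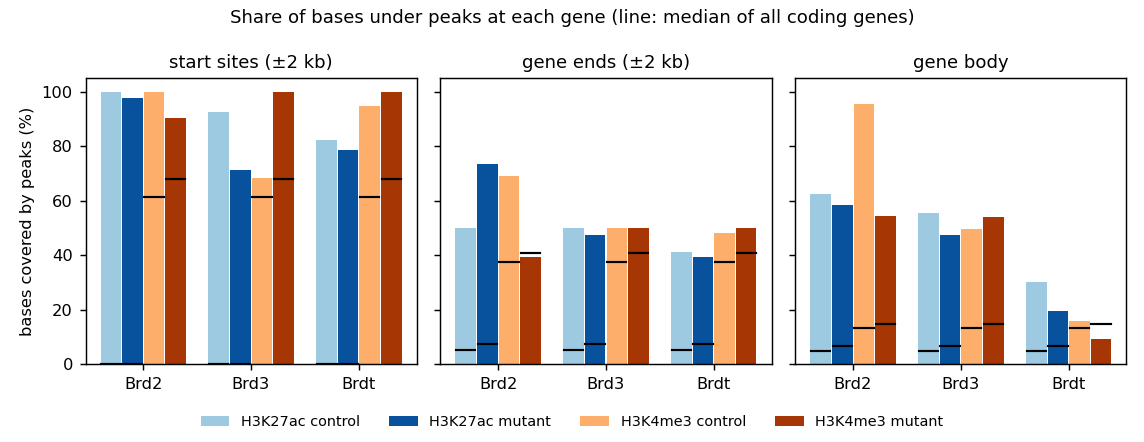
Bars give the share of bases (%) under peaks of each list at the 3 genes, within 2 kb of listed start sites, within 2 kb of both gene ends and over the gene body, and black lines give the median of all protein-coding genes. Each bar is 1 list without replicates, and the 12 bars at start sites lie between 68.3% and 100%.

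Set against all protein-coding genes, the H3K27ac coverage of the 3 genes was high. Within 2 kb of listed starts, the median gene had no H3K27ac in either condition, whereas Brd2 was covered to 100% in control and 97.9% in mutant embryos. Brd3 was covered to 92.6% and 71.3%, and Brdt to 82.4% and 78.8%. For H3K4me3 the median gene was covered to 61.3% in control and 67.9% in mutant. The 3 genes ranged from 68.3% to 100% in control and from 90.4% to 100% in mutant embryos. In the body, Brdt was the member nearest to the median gene, with H3K4me3 over 15.8% in control and 9.29% in mutant against medians of 13.2% and 14.7%.

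None of the 3 genes had gene-end peaks of a mark in 1 condition alone, and none differed by 2-fold or more in covered gene-end bases. Over all genes with bases in either list, 32.2% were at least 2-fold lower and 31.2% at least 2-fold higher in mutant for H3K27ac. For H3K4me3 these shares were 13.3% and 13.2%. In the gene body no member reached 2-fold either, where 27.1% and 29.8% of genes did for H3K27ac and 15.4% and 20.1% for H3K4me3. In gene-end bases, H3K27ac was lower in mutant at 2 of the 3 genes (52.7% of all genes) and H3K4me3 at 1 of 3 (41.0%). The H3K27ac gene-end shares are over 15424 genes, of which 3419 had no control peak and could only be higher, unlike the 3 genes. The H3K27ac tally rests on differences of -204 bases at Brd3 and -143 at Brdt. It was 3 of 3 around start sites, 1 of 3 with windows of 1 or 5 kb, and 0 of 3 after joining peaks closer than 1 kb. In the body, H3K27ac was lower at 3 of 3 (51.3%) and H3K4me3 at 2 of 3 (41.5%). The member closest to 2-fold was H3K4me3 over the body of Brd2, with 1.76 times as many bases in control as in mutant.

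**Figure D3:**
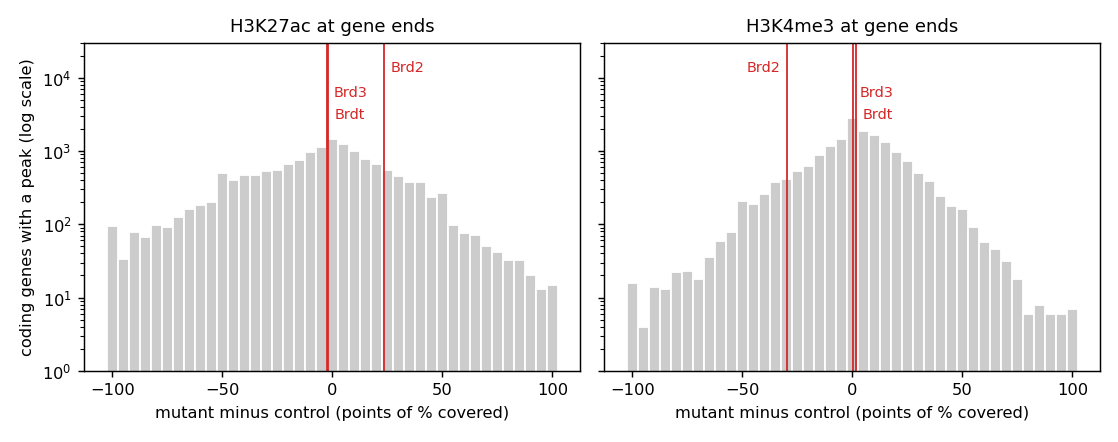
Difference in the share of gene-end bases covered (mutant minus control, in percentage points) for all protein-coding genes with a peak in either list, as a histogram with a log count axis, 1 panel per mark, with red lines at the 3 genes. Brd3 and Brdt sit near 0 in both panels, and Brd2 lies to the right for H3K27ac and to the left for H3K4me3.

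The positions of covered bases were also compared, over each gene with 2 kb on each side. Of the control H3K27ac bases, 77.4% at Brd2, 76.3% at Brd3 and 46.3% at Brdt were covered in mutant embryos too. Summed over all protein-coding genes the share was 44.1%, and the median gene had 29.2%. Of the control H3K4me3 bases, 56.9% at Brd2, 83.7% at Brd3 and 39.9% at Brdt were covered in mutant, against 62.8% summed over all genes and 69.9% for the median gene. At Brd2, all 7012 mutant H3K4me3 bases lay within the control peak. Brdt thus had the smallest shared portion of both marks among the 3 genes.

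The overlap of the marks with each other was taken as a share of each. H3K27ac lay over 91.1% of the H3K4me3 bases of Brd3 in control and 71.6% in mutant, and over 79.2% and 59.1% at Brdt. At Brd2 the share was 71.0% in control and 84.4% in mutant, where the H3K4me3 bases were fewer. Over all genes the shares were 56.6% and 37.3%. As a share of H3K27ac bases, those under H3K4me3 came to 100% in control and 67.7% in mutant at Brd2, 81.6% and 80.8% at Brd3, and 45.6% and 35.1% at Brdt. Over all genes they came to 54.7% and 42.8%. Bases under all 4 lists came to 5918 at Brd2, in a single stretch from 1354 bp before to 4563 bp after the outermost start. They came to 22514 at Brd3, in 6 stretches, and to 2316 at Brdt, in 3 stretches, of which one of 1455 bp crossed the start. The stretches are counted within 2 kb of the gene, and a stretch that runs past this limit is counted in part.

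Genes with the most similar pattern were found from 8 values per gene, the share of bases covered in each list at the gene ends and over the body. The mean absolute difference served as the measure. Near to Brd2 were Hhex (8.5 percentage points) and Rnf4 (9.46), where the median gene was 44.79 points away. Nearest to Brd3 were Ttc21a (1.74), Hacd3 (2.32) and Tmem39a (2.56), and nearest to Brdt were Zfp148 (2.8), Cdc40 (2.97) and Lmbrd2 (2.98). Brd2 and Brd3 differed from each other by 15.03 points, Brd3 and Brdt by 18.8 and Brd2 and Brdt by 33.8. The median gene was 35.22 points from Brd3 and 26.77 from Brdt, so Brd2 lay further from Brdt than the median gene did. Of all genes, 83.6% were nearer to Brdt than Brd2 was, and 25.2% were nearer than Brd3.

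Other genes of acetyl-lysine reading and of the elongation step that BET proteins act on were counted for comparison, 49 in all. The lists comprised 30 other genes with a bromodomain, 15 genes of P-TEFb, its inhibitors and other elongation factors, and 4 genes with a YEATS domain, which also binds acylated lysines. H3K27ac at gene ends covered fewer bases in mutant at 23 of the 30 bromodomain genes, more at 6 and as many at 1. Over all genes with bases in either list, 52.7% had fewer. Of these 15424 genes, 3419 had no control peak and could not have fewer, whereas 29 of the 30 bromodomain genes had one. The median difference of the 30 genes was -18.0 percentage points, against -2.18 over all genes with bases in either list. The 7 late 2-cell markers had a median difference of -22.1 points. The 3 BET genes were covered to 50%, 50% and 41.2% in control and to 73.4%, 47.5% and 39.4% in mutant embryos, in the order Brd2, Brd3, Brdt. The bromodomain genes had medians of 51.5% and 34.1%, against 5.21% and 7.51% over all genes, so they had more control coverage to lose. Whether their difference exceeds that of genes with like control coverage was not tested. H3K27ac was lower at 11 of the 15 elongation genes, with medians of 66.9% and 44.9%, and at 3 of the 4 YEATS genes, with medians of 27.3% and 12.8%.

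In the 49 genes, H3K27ac at gene ends was at least 2-fold lower in mutant at 19 (38.8%) and at least 2-fold higher at 1. Of all genes with bases in either list, 32.2% and 31.2% were. Those 15424 genes include 3419 without a control peak, which can only be higher, whereas all of the 49 but Baz1b had one. The shares are therefore not matched for control coverage. H3K27ac peaks of the control list had no counterpart at the gene ends in mutant at 4 genes, where 22.7% of all genes with a control peak had none. These were Taf1, which encodes the largest subunit of TFIID (8002 bases in control), Trim66 (4001), Sp140 (1111) and Ccnt2, a cyclin of P-TEFb (2392). Among the 30 bromodomain genes this held for 3, but for 7 with windows of 1 kb, 6 around start sites and 0 with windows of 5 kb. Brpf3, a scaffold of a histone acetyltransferase complex, had 8002 and 992 bases, and Brd8, a subunit of the Tip60 complex, 7303 and 860. The largest differences upward were at Cecr2 (4237 and 8002 bases), Brwd1 (4286 and 8002) and the acetyltransferase gene Kat2a (4001 and 6068). Brd2, with 4001 and 5877 bases, differed by 1876 bases and Kat2a by 2067. Baz1b was the one gene of the 49 with H3K27ac at its ends in mutant only, 246 bases, as were 34.6% of all genes without a control peak.

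H3K4me3 at the same 49 genes was lower at 18, higher at 23 and equal at 8. By list, it was lower at 10 of 30 bromodomain genes, 6 of 15 elongation genes and 2 of 4 YEATS genes. Of all genes with bases in either list, 41.0% were lower, so these counts lie near the background. It was at least 2-fold lower at 3 and at least 2-fold higher at 2, against 13.3% and 13.2% of all genes. The largest differences downward were at Taf1 (7085 and 3692), Aff1 (6344 and 3138), a scaffold of the super elongation complex, and Atad2b (5070 and 1878). The difference at Brd2, with 5535 and 3148 bases, was smaller than these. The largest upward were at Ccnt1, the main cyclin of P-TEFb (4001 and 7492), Nelfb (4026 and 6405) and Trim66 (475 and 2649). Sp110 had 333 bases in control and 0 in mutant, as had 8.94% of all genes with a control peak, and Phip had 0 and 184, as had 19.2% of those without one. Brd3 and Brdt differed by 6 and 134 bases.

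**Figure D4:**
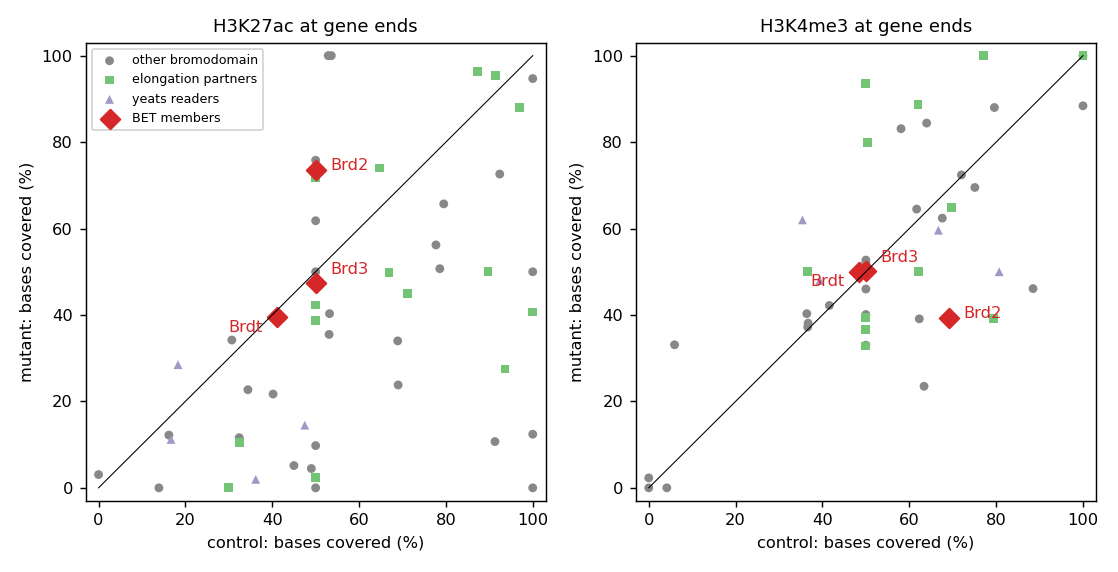
Share of gene-end bases (%) covered in control (x axis) and mutant (y axis) for the 3 BET genes (red diamonds), 30 other bromodomain genes, 15 elongation genes and 4 YEATS genes, 1 panel per mark, with 1 list per axis and no replicates. The line marks equal coverage. Most H3K27ac points lie under the line, with Brd2 above it and Brd3 and Brdt close to it, and in the H3K4me3 panel Brd2 lies below the line.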

How the data were processed

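Peak positions of 4 immunoprecipitation groups were analysed, 1 list per group. The lists hold 3 columns, the chromosome, start and end, deposited by the authors with no header, count, height or score, so no peak could be ranked by strength. CASAVA, Trimmomatic, Bowtie2, SAMtools, Picard, MACS2 and deepTools and the builds mm10 and GRCm38 are named, without version or role, per the submitters' processing notes. The calling threshold and the pooling of the 2 libraries are not given in the sources used here. The smallest gap between peaks was 681, 602, 684 and 734 bp and the smallest width 168, 149, 169 and 182 bp, in the order control H3K27ac, mutant H3K27ac, control H3K4me3 and mutant H3K4me3. Peaks on unplaced scaffolds, 0.0163% to 0.123% of a list, were left out.

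Gene spans came from the RefSeq gene table and start sites from the RefSeq promoter table, both of GRCm38.p6. The second listed starts for 17492 of 21887 protein-coding genes and all 3 members. For each list and gene, peaks overlapping by at least 1 bp, covered bases within the region and the full width of the widest overlapping peak were computed with Python 3.11.15, numpy 2.4.6 and pandas 2.3.3. Regions were 2 kb on each side of both gene ends, the gene body, and 2 kb on each side of listed starts. Interval code was tested on simulated data. A 2-fold difference in covered bases counted as a call. With 1 list per group no test was made.

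Named genes were the members, their overlapping or nearest coding genes, the 3 most similar genes each (1 is not reported here), and, among the pathway lists, losses, gains and the 3 largest changes in each direction. Gm17202, Gm8152, Gm18548 and the stage and cumulus markers at 0 or highest were named after their values were seen. Members, lists and alternatives were chosen with earlier results of these data known. Alternatives covered window size, start sites only, merging, width limits, list size and a minimum of 500 covered bases.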

Additional observations from a re-analysis of the deposited data

How the results depend on the processing

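No paired analysis was possible because the 2 libraries of a group share 1 list, so neither library could be left out. Differences in covered bases, mutant minus control, were recomputed, and a value within 1.5 times the reported one counted as unchanged. Over the gene body, 23 of 24 recomputed values were unchanged and 1 moved, H3K4me3 at Brd3, from 2671 to 1718 bases after joining peaks closer than 1 kb. At the gene ends, 21 of 42 were unchanged, 18 moved and 3 changed sign.

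With windows of 1 kb the gene-end differences were 426 (Brd2 H3K27ac), -534 (Brd2 H3K4me3), 0 (Brd3, both marks), -322 (Brdt H3K27ac) and 0 (Brdt H3K4me3). With windows of 5 kb they were 782, -5349, -995 (Brd3 H3K27ac), -125 (Brd3 H3K4me3, 6 as reported), 106 (Brdt H3K27ac, -143 as reported) and 2030. Around start sites alone they were -144 (Brd2 H3K27ac, 1876 as reported), -646, -851, 1267 and, for Brdt H3K4me3, 212. Wider or fewer windows hold other bases by construction. The signs at Brd3 and Brdt rest on small differences, and that of H3K27ac at Brd2 on its 3′ end. Merging within 1 kb gave -1534 for Brd2 H3K4me3 and 0 for H3K27ac at Brd3 and Brdt, and common limits gave -847 for Brdt H3K27ac.

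The counts of other bromodomain genes were small, and 17 of 32 were unchanged. H3K27ac losses, 3 as reported, were 7 with 1 kb, 0 with 5 kb, 6 around start sites, and 5 each without peaks under 500 bp, with lists of equal size, and with at least 500 covered bases. H3K27ac gains, 1 as reported, were 0 with 1 kb, 5 kb or at least 500 bases and 2 around start sites. H3K4me3 losses, 1 as reported, were 0 with 1 kb and with at least 500 bases. H3K4me3 gains, 1 as reported, were 0 with 5 kb, around start sites and without peaks under 500 bp. Read depth is unknown, so a missing peak does not show that a mark was absent.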
